A study of Mus musculus with 64 samples.

Results

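The ribosomal protein genes encode the proteins of the cytoplasmic ribosome, large subunit proteins named Rpl and small subunit proteins named Rps. The members are the protein-coding genes of the mouse GENCODE annotation (release 21, GRCm38, the build also called mm10) whose symbol is Rpl or Rps followed by a number, with Rplp0 to Rplp2 and Rpsa. This rule found 80 of 21951 protein-coding genes, 49 of the large and 31 of the small subunit. The Rps6k kinases and near-names such as the mitochondrial Mrpl and Mrps genes were not taken.

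Ribosomal protein genes are transcribed at a high rate in every growing cell, from short promoters that often lack a TATA box, and their products are needed in equal amounts. SOX2 is a DNA-binding factor of pluripotent and early epiblast cells. TCF7L1, TCF7L2 and LEF1 are the DNA-binding factors of the WNT pathway, and β-catenin is the coactivator that they recruit when the pathway is active.

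Chromatin immunoprecipitation and sequencing (ChIP-seq) of SOX2, β-catenin, LEF1, TCF7L1 and TCF7L2 gave 60 peak lists, with 12 for each target from 4 conditions of 3 replicates. The 4 inputs were not used here as samples of their own. The wild-type cells are labelled HM1 (129). The methods name this control as the HM1 TetON line of embryonic stem cells (ESCs), the parent of all lines used, so that the control too carries the TetON modification. Naive ESCs (time label 72 h, no treatment) had been brought to naive pluripotency in 2i medium, which holds the WNT agonist CHIR99021 and the MEK inhibitor PD0325901. Caudal epiblast-like cells (CEpiLCs) were the same cells differentiated with bFGF and the WNT secretion inhibitor LGK974, to which CHIR99021 was added for the last day of the 72 h. The SOX2-ON and SOX2-OFF cells were a clonal SOX2-TetON line that lacks endogenous Sox2 and carries a doxycycline-driven Sox2 transgene at Hprt. They were differentiated like CEpiLCs with 1 µg/ml doxycycline kept (SOX2-ON) or withdrawn (SOX2-OFF). A single clonal line stood for both, so effects of the clone and of the transgene cannot be told apart from those of SOX2 level in any comparison with wild-type cells. The labels name TCF7L1 and TCF7L2 by their antibodies, as TCF3 and TCF4. A peak list measures neither the level of SOX2 protein nor that of any ribosomal protein transcript.

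A peak was assigned to a gene when its summit, the position of highest signal, lay within 1 kb of the annotated gene start. Lists differed in length from 1628 to 991719 peaks, so each was shortened to its 20000 peaks of highest fold, the deposited enrichment over background. The 10 lists below that length were used whole. The labels call the replicates biological. There were 15 members with the start of another protein-coding gene within 1 kb, such as Rpl7a with Med22 and Rpl12 with Lrsam1, and a peak there cannot be told apart between the pair. Ribosomal protein genes also have many processed pseudogenes elsewhere in the genome, and the part that read mapping to such copies plays in these peaks was not tested.

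TCF7L2 stood at a fixed subset of ribosomal protein promoters. A peak lay at 18 of the 80 members in at least 11 of the 12 TCF7L2 libraries, which is 22.5% of members, against 4.10% of all protein-coding genes (900 of 21951). At 17 of them the peak was present in 12 of 12 libraries, and at Rpl19, a protein of the large subunit near the exit of the nascent chain tunnel, it was present in 11. The subset holds 10 large subunit genes, Rpl4, Rpl7a, Rpl10a, Rpl12, Rpl19, Rpl23a, Rpl26, Rpl27a, Rpl28 and Rpl35. It also holds 8 small subunit genes, among them Rps6, Rps7, Rps15, Rps15a, Rps19 and Rps28. The threshold of 11 libraries was chosen after the values were seen, and it fell in a wide gap. Just below it, Rpl6 had a peak in 5 libraries, Rpl18 and Rps13 in 4, and Rps16 and Rpl13a in 3. A further 25 members had a peak in 1 or 2 TCF7L2 libraries, and 32 had one in none.

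The summits of most genes of this subset shared a sequence. To find it without using the members, words of 6 and of 8 letters were counted on both strands within 50 bp of the TCF7L2 summit at 864 other genes with a peak in at least 11 TCF7L2 libraries, and within 50 bp of the median summit of the other targets at 1079 other genes with no TCF7L2 peak and with peaks in at least 6 libraries of those targets. The most enriched word of 6 letters was CGCGAG, present at 80.6% of the former and 4.08% of the latter. The most enriched word of 8 letters was TCGCGAGA, present at 38.1% of the former and in 0 of 1079 of the latter. With its reverse complement it makes the palindrome TCTCGCGAGA, which contains both shorter words and is known from CpG island promoters of housekeeping genes, where the factor BANP is known to bind it. BANP was not measured here. The words were chosen after the data were seen. The windows of 30 bases below lie at the TCF7L2 summits of 10 of the 18 genes and are shown because they carry this palindrome to differing degrees. Each reads 5′ to 3′ on the strand of the gene, from the RefSeq GRCm38 genome, and capitals mark bases identical to the palindrome at its best alignment within 100 bp of the median summit.
Rps19, chr7:24884574-24884603, plus strand: cactccgaaaTCTCGCGAGActcgacgccc
Rps28, chr17:33824544-33824573, minus strand: ccgcgtgcggTCTCGCGAGAgcgaaagtga
Rpl12, chr2:32961648-32961677, plus strand: ggccagcggtTCTCGCGAGAgctgagcttt
Rps7, chr12:28635879-28635908, minus strand: tatgagccgtTCTCGCGAGAgccgtccctc
Rpl26, chr11:68901530-68901559, plus strand: gctccgagacTCTCGCGAGAtctcgcggca
Rps6, chr4:86857399-86857428, minus strand: cgccggctgtTCTCGCGAGAacttagagcg
Rpl7a, chr2:26910745-26910774, plus strand: gggcgcctgcTCTCGCGAtAtctgcggcca
Rpl23a, chr11:78183597-78183626, minus strand: atatataagcTaTCGCGAGActtttatgag
Rpl35, chr2:39005303-39005332, minus strand: cggtgttgctcaTCGCGAGActcagtttcc
Rpl19, chr11:98026641-98026670, plus strand: tcctcacgccgCctGCGcGActtagcgtga

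The whole palindrome was present at 9 of the 18 genes, among them Rps19, Rps28, Rpl12, Rpl10a, Rps7, Rpl26, Rpl4 and Rps6. The best alignment kept 9 of the 10 letters at Rpl7a and Rpl23a, 8 at Rpl35 and 6 at Rpl19. The centre of the best alignment lay a median of 7 bp from the median summit and at most 24 bp away. Over the 12 libraries the summit of one gene moved by a median of 41.5 bp, from 12 bp at Rpl26 to 204 bp at Rpl4.

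Within 300 bp of the gene start, the word of 8 letters was present at 14 of the 18 genes and at 0 of the other 62 members, against 1.78% of all protein-coding genes. The palindrome was present at 9 of the 18 and at 0 of the other 62, against 0.766% of all genes. The word of 6 letters was less selective, being present at 17 of the 18, at 21 of the other 62 and at 24.2% of all genes. Rpl35 is the gene that lacked it in this window, and its summit lay 307 bp downstream of the annotated start. Read the other way, a TCF7L2 peak in at least 11 libraries was present at 14 of 14 members with the word of 8 letters and at 79.0% of the 390 protein-coding genes with it. Of the 168 protein-coding genes with the palindrome, 94.0% had such a peak, and of the genes without it, 3.41%. The letters were chosen at non-member genes with such a peak. The shares of 79.0% and 94.0% over all protein-coding genes rest largely on those genes and are not independent of the choice. All these shares are descriptions of letters in a window and were not tested.

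The TCF words searched, CTTTGAA and CTTTGAT, were found at few of the same promoters, and other forms of the TCF site were not searched. CTTTGAA or CTTTGAT on either strand lay within 300 bp of the start of 1 of the 18 genes, 5 of the other 62 members and 14.8% of all genes. Of the 882 non-members with a TCF7L2 peak in at least 11 libraries, 11.6% had one. With 18 genes these shares differ by few genes, and the difference was not tested. Within 100 bp of the median summit these letters were present at 1 of the 33 members with a summit in at least 2 TCF7L2 libraries, 3.03%, against 7.76% of 4512 genes. Other promoter words were found at members both inside and outside the subset. The ETS word CCGGAA was present near the start of 60% of members and 26.7% of all genes, and of 9 of the 18 genes. The YY1 word ATGGCG, which can overlap a start codon, was present at 52.5% of members and 21.9% of all genes, and at 8 of the 18. The SP/KLF word GGGCGG was present at 72.5% and 54.9%, and the TATA box word TATAAA at 12.5% and 19.5%. The words CTTTCC or CTTTTC on the gene strand within 50 bp of the start, which are part of the pyrimidine-rich initiator of ribosomal protein genes, were present at 21.2% of members and 7.25% of all genes. The SOX words CATTGT or CTTTGT were present at 33.8% of members and 41.9% of all genes. The median share of G and C bases within 300 bp of the start was 58.2% for members and 56.6% for all genes.

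TCF7L2 enrichment at the subset was among the strongest of each list. Rps19, a small subunit protein whose loss is a known cause of Diamond-Blackfan anaemia, had a fold of 135, 165 and 151 in the 3 naive ESC libraries and 55.1, 241 and 175 in the CEpiLC libraries. Its fold was 100.2, 100.5 and 174 in SOX2-ON and 111, 126 and 168 in SOX2-OFF. The 4 conditions overlapped, and the CEpiLC replicate 1 library was the lowest of the 12. By fold the Rps19 peak ranked between 5 and 23 in every TCF7L2 list. Rps28 had a fold of 90.1, 91.5 and 74.7 in naive ESCs, 39.1, 122 and 81.4 in CEpiLCs, 36.0, 32.4 and 66.1 in SOX2-ON and 26.5, 42.2 and 62.4 in SOX2-OFF. All 3 naive values lay above every SOX2-ON and SOX2-OFF value of this gene, while the CEpiLC values spanned both. The median fold over the 12 libraries was 58.2 at Rpl12 and 53.4 at Rpl7a, and it fell through the subset to 10.2 at Rpl28, a gene with 7 of the 10 letters. The median rank was 1000 or better at 16 of the 18 genes, and that of Rpl28 was 1060. Outside the subset the fold was low, with a median of 6.88 at Rpl6 and 8.94 at Rps13 over the libraries that held a peak. Rps6, the substrate of the S6 kinases, had a fold of 25.9, 28.2 and 16.5 in naive ESCs, 11.8, 42.6 and 28.9 in CEpiLCs, 10.1, 14.7 and 35.3 in SOX2-ON and 13.2, 11.52 and 19.8 in SOX2-OFF. The 4 conditions overlapped at Rps6.

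**Figure D1:**
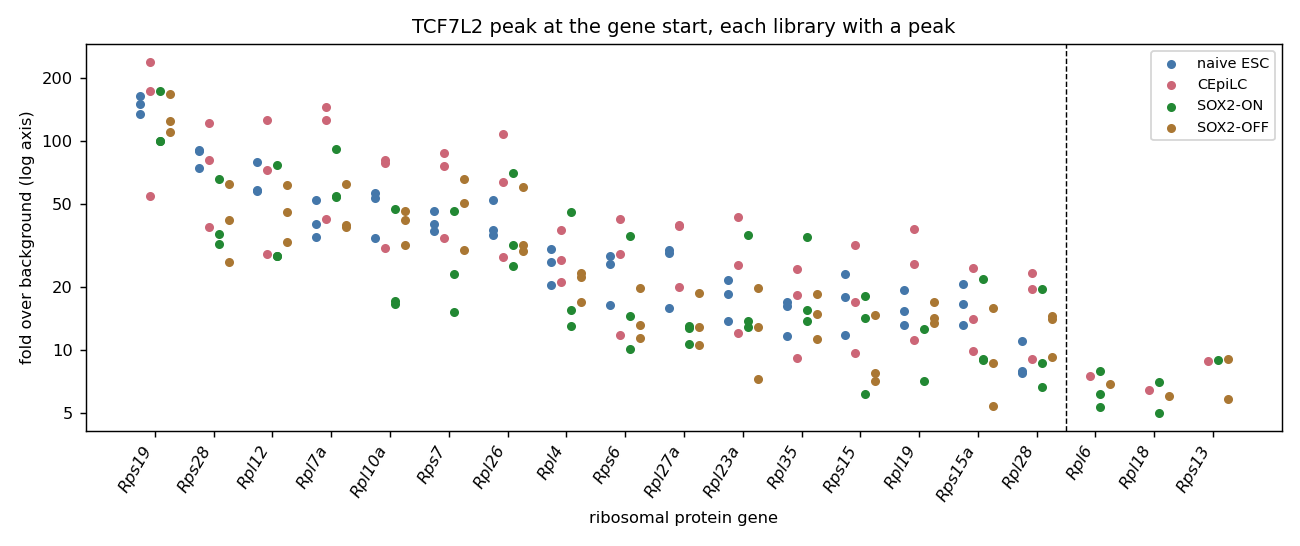
TCF7L2 fold over background (log axis) at 16 of the 18 ribosomal protein genes with a peak in at least 11 of 12 TCF7L2 libraries, left of the dashed line, and at the 3 genes next in number of libraries, right of it. Each point is 1 library that held a peak, coloured by condition. The medians run from 143 at Rps19 to 10.2 at Rpl28, the colours overlap at Rps19, and the naive ESC points of Rps28 (74.7 to 91.5) sit above those of SOX2-ON and SOX2-OFF (26.5 to 66.1).

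No change of TCF7L2 between conditions was detected at any member. The test was limma, fitted for each target over all protein-coding genes with a peak in at least 3 of its 12 libraries on log2(fold + 1), with 0 for no peak. Changes are given as naive ESC minus CEpiLC or SOX2-ON minus SOX2-OFF, with Benjamini-Hochberg adjusted p. Between naive ESC and CEpiLC, limma called 0 of 23 members tested, with 0 at an unadjusted p under 0.05, against 8.63% of the 3023 genes tested. Between SOX2-ON and SOX2-OFF it called 0 of 23, with 0 at an unadjusted p under 0.05, against 0.331% of genes, and for the difference between these 2 changes 0 of 23, with 2 at an unadjusted p under 0.05, against 5.23%. For the 18 genes the estimated changes between naive ESC and CEpiLC ran from -1.12 at Rpl7a to 0.21, with standard errors from 0.51 to 0.86 and a lowest adjusted p of 0.264 by limma. Between SOX2-ON and SOX2-OFF they ran from -1.72 at Rpl19 to 0.69, with a lowest adjusted p of 0.627 by limma. A change of 1 on the log2 scale is under 2 standard errors at each of the 18 genes, so smaller changes were not detectable. The median change between naive ESC and CEpiLC was -0.30 over the 23 members and -0.90 over all genes tested. No member had a TCF7L2 peak in 3 of 3 libraries of 1 condition and 0 of 3 of the other, against 1.27% of genes for naive ESC and CEpiLC and 0.219% for SOX2-ON and SOX2-OFF. The 18 genes were chosen for a peak in nearly all TCF7L2 libraries, so none of them could have 0 of 3. The 32 members with no TCF7L2 peak and the 25 with one in 1 or 2 libraries could not have 3 of 3. Only Rpl6, Rpl18, Rps13, Rps16 and Rpl13a could have differed in this way, so the count for members is no test of stability.

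The other 4 targets were found at fewer genes of this subset. Of the 18 genes, 17 or 18 had a TCF7L2 peak in each TCF7L2 library, a count set high by their choice through TCF7L2 peaks. In libraries of the other targets, 0 to 10 had a SOX2 peak, 0 to 4 a β-catenin peak, 0 to 5 a LEF1 peak and 0 to 2 a TCF7L1 peak. That these counts were lower than for TCF7L2 follows from the choice of the genes and is no test. The highest SOX2 counts were in CEpiLCs, with 10, 4 and 7 of the 18 genes in replicates 1, 2 and 3, beside 24.2%, 25.8% and 27.4% of the other 62 members and 18.8%, 16.3% and 21.2% of all genes. For the other targets the highest counts were 4 of 18 for β-catenin, in CEpiLC replicate 2, where 12.9% of the other members and 12.8% of all genes had a peak, and 5 of 18 for LEF1, in CEpiLC replicate 2, where the shares were 16.1% and 11.2%. All 12 TCF7L2 libraries were made with 1 antibody. Whether the peaks mark TCF7L2 itself was not tested, since no cells that lack TCF7L2 were analysed here.

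Taken over all 80 members, the TCF7L2 share was 28.0% ± 4.78 (SD, n = 12 libraries), with a range from 23.8% to 40.0%, against 10.9% ± 2.98 of all protein-coding genes. The members lay above all genes in 12 of 12 libraries. Without the 18 genes, the other 62 members had a peak at 7.26% ± 6.17, a share that leaving out genes chosen by their TCF7L2 peaks must lower. With every list shortened to the shortest of its target, the share of members was 23.4% ± 2.39 and that of all genes 6.95% ± 1.99. Related gene lists were counted the same way. A peak in at least 11 TCF7L2 libraries was present at 5 of 78 mitochondrial ribosomal protein genes (Mrps14, Mrpl48, Mrps7, Mrpl57 and Mrpl40), at 0 of 20 translation factor genes and at 3 of 17 ribosome biogenesis genes (Ncl, Npm1 and Nhp2). The mean share with a TCF7L2 peak was 19.7% ± 5.39 for the mitochondrial list, 14.2% ± 8.21 for the translation list and 29.4% ± 7.09 for the biogenesis list.

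**Figure D2:**
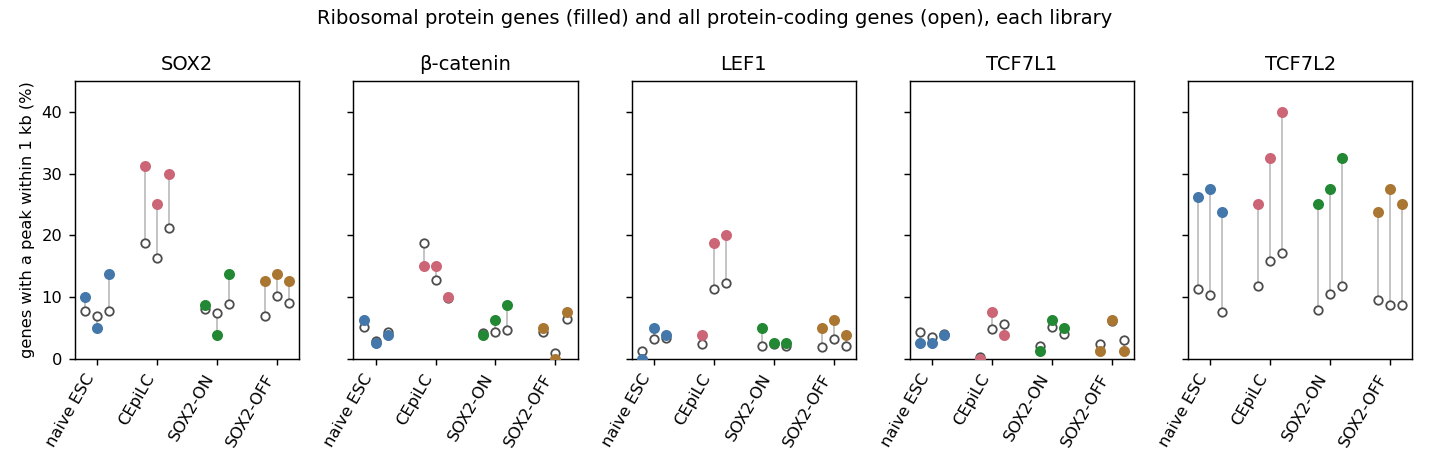
Percent of genes with a peak within 1 kb of the gene start in each library, for the 80 ribosomal protein genes (filled, coloured by condition) and all 21951 protein-coding genes (open), with 1 panel for each target and replicates 1 to 3 from left to right within a condition. Filled points lie above open ones in all 12 TCF7L2 libraries, with members between 23.8% and 40.0%, in 11 of 12 LEF1 libraries and in 10 of 12 SOX2 libraries, where the 3 of CEpiLCs are highest, between 25.0% and 31.2%.

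For TCF7L2 the annotated start hid 2 further genes. Rps2 and Rpl17 had no TCF7L2 peak within 1 kb of the gene start, but when the nearest annotated start of any transcript was used, each had a peak in 12 of 12 libraries and the count rose from 18 to 20. Rps2, which has 3 annotated starts, the farthest 2135 bp from the gene start, then had a median fold of 21.8 with a range from 7.38 to 58.1. Rpl17, with 2 starts 1919 bp apart, had a median fold of 27.4 with a range from 10.6 to 42.5. The word of 8 letters lay within 300 bp of 1 of the 2 starts of Rpl17 and of 0 of the 3 starts of Rps2, whose starts all had the word of 6 letters.

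Among the 20000 strongest peaks, SOX2 was found at more ribosomal protein genes in CEpiLCs than in the other conditions. The share of members with a SOX2 peak was 28.8% ± 3.31 in CEpiLCs, 9.58% ± 4.39 in naive ESCs, 8.75% ± 5.00 with SOX2 ON and 12.9% ± 0.722 with SOX2 OFF, each over 3 libraries with its SD. All protein-coding genes followed the same order between CEpiLCs and the rest, at 18.7% ± 2.44, 7.43% ± 0.504, 8.13% ± 0.725 and 8.67% ± 1.68. A SOX2 peak was present in at least 2 of 3 CEpiLC libraries at 21 members, 26.2% against 16.5% of all genes. The same count was 3 members in naive ESCs (5.30% of all genes), 0 in SOX2-ON (5.87%) and 7 in SOX2-OFF (5.75%). In the full lists, which differ in length, CEpiLCs did not stand apart. There the share of members with a SOX2 peak was 43.8%, 71.2% and 67.5% in CEpiLCs, 85.0%, 52.5% and 51.2% in naive ESCs, 52.5%, 45.0% and 80.0% in SOX2-ON, and 16.2%, 83.8% and 67.5% in SOX2-OFF. In these lists the share of members lay above that of all genes in 12 of 12 SOX2 libraries, by 2.50 to 31.7 percentage points.

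In the shortened lists the SOX2 fold was lower in naive ESCs than in CEpiLCs at 5 members. The call was made at 5 of the 25 members tested, with 0 higher, against 16.4% of the 3977 genes tested. Rps10 had a fold of 9.93, 11.9 and 7.70 in the 3 CEpiLC libraries and no peak in the shortened naive, SOX2-ON or SOX2-OFF lists. It passed the filter of 3 libraries through CEpiLCs alone, so that it had to differ, and its values are a description with no test. Rps27a, which encodes a ribosomal protein fused to ubiquitin, had a fold of 4.74, 7.07 and 6.04 in CEpiLCs and no peak in the naive lists, a change of -2.78 ± 0.32 (SE, adjusted p = 0.000116 by limma). Rpl22 had a fold of 4.81, 10.5 and 13.1 in CEpiLCs against none, a change of -3.29. Rplp2, a protein of the ribosomal stalk, had 5.15, 6.62 and 7.51 against none, a change of -2.88. Rpl7 had 4.98, 7.74 and 5.32 against none, a change of -2.79. Rpl22 had a SOX2 peak in 5 of 12 libraries, and Rplp2 and Rpl7 in 4. They reached the filter of 3 libraries only with their CEpiLC peaks, so their changes too are descriptions with no test. The median change was -0.94 over the 25 members and -1.15 over all genes tested. These 5 are also the members with a peak in 3 of 3 CEpiLC and 0 of 3 naive libraries, against 3.25% of all genes in either direction.

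These differences rest on where the lists end. In the full lists a weaker SOX2 peak was present in naive ESCs at Rps10, with a fold of 9.50, 5.85 and 3.604, at Rps27a, with 4.59, 4.63 and 5.45, and at Rplp2, with 4.32, 3.86 and 3.64. The naive replicate 1 list of 907862 peaks reached its 20000th peak at a fold of 9.89, so that the Rps10 peak of 9.50 fell just outside it. With all deposited peaks limma called 0 members in this comparison. The count was 1 without replicate 1, 2 without replicate 2 and 0 without replicate 3. Rps10 had its 3 peaks in different replicates, so it fell below the filter of 3 libraries in each of these fits.

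**Figure D3:**
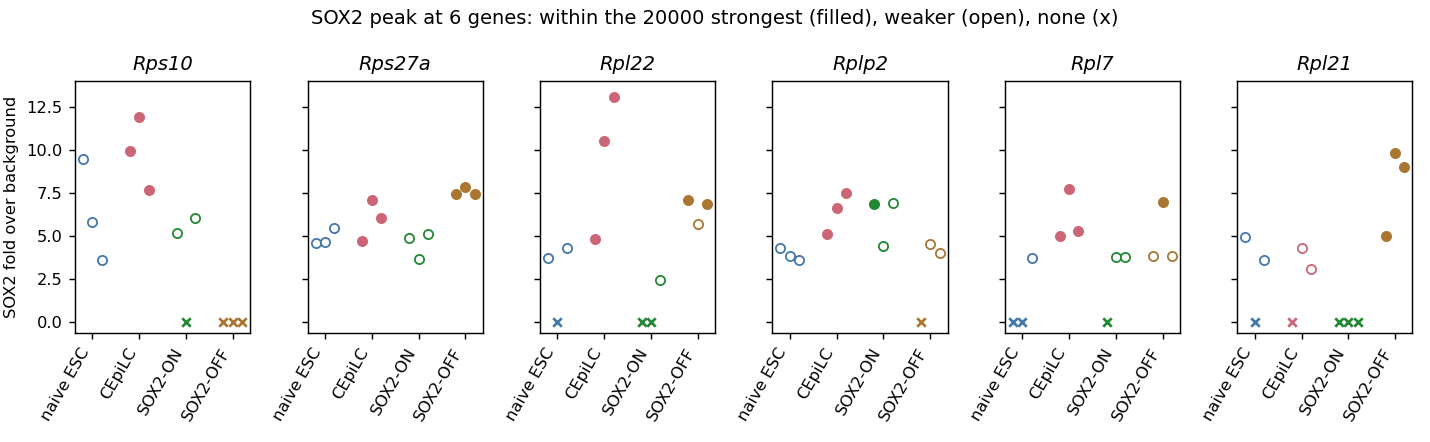
SOX2 fold over background at the 6 members that limma called in either SOX2 comparison, by condition, with replicates 1 to 3 from left to right. Filled points are peaks within the 20000 strongest of their list, open points are weaker peaks and crosses are libraries with no peak, drawn at 0. Open points of naive ESCs at Rps10 reach 9.50, inside the range of the filled CEpiLC points from 7.70 to 11.9.

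In the shortened lists the SOX2 fold was lower in SOX2-ON than in SOX2-OFF at 2 members of 25 tested, with 0 higher, against 6.16% of genes. Rps27a had a fold of 7.46, 7.84 and 7.46 in SOX2-OFF and no peak in the SOX2-ON lists, a change of -3.10 ± 0.32 (SE, adjusted p = 0.000168 by limma). Rpl21 had 5.01, 9.83 and 9.01 in SOX2-OFF and no peak in any other shortened list. It passed the filter through SOX2-OFF alone and so had to differ, and its values are a description with no test. Rps27a had weaker peaks of 4.87, 3.67 and 5.11 in the full SOX2-ON lists, while Rpl21 had none in them. The same 2 members had a peak in 3 of 3 against 0 of 3 libraries, with 1.28% of all genes in either direction. The peaks at these genes were thus higher in cells from which the Sox2 transgene had been withdrawn. The lists of the SOX2-OFF libraries held 56263 to 375980 peaks and those of SOX2-ON 93312 to 232446, and what the SOX2 antibody enriched in these cells was not tested. With all peaks, and without replicate 3, limma called 0 members here. Rpl21 fell below the filter of 3 libraries whenever a replicate was left out. The change of SOX2 between naive ESC and CEpiLC differed from that between SOX2-ON and SOX2-OFF at 3 members, Rps10, Rpl21 and Rplp2, against 11.8% of genes. Of these, Rps10 and Rpl21 entered the fit through a single condition, and Rplp2 entered it only with its CEpiLC peaks.

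The members with a SOX2 peak in the most libraries carried it in several conditions. Rps7 had one in 10 of 12 libraries, with a fold of 18.2, 10.3 and 9.12 in naive ESCs, 14.7, 18.6 and 19.8 in CEpiLCs and 8.55, 9.54 and 7.41 in SOX2-OFF. In SOX2-ON it had a fold of 10.9 in replicate 1 and no peak in the other shortened lists. Its CEpiLC values overlapped those of naive ESCs. Rps9 and Rps29 had one in 7 libraries, and Rps27a in 6. At the gene start, a peak in at least 6 of 12 SOX2 libraries was present at 4 members, 5.00%, against 6.15% of all genes. When the nearest transcript start was used, Rpl3 had a SOX2 peak in 9 libraries and Rpl18 in 7, against 3 and 4 at the gene start. Within 100 bp of the median SOX2 summit, CATTGT or CTTTGT was present at 11 of 36 members, 30.6%, against 33.6% of 5982 genes. Such a word lay 36 bp from the summit at Rps10, 45 bp at Rps9 and 51 bp at Rps29, and at Rps7, Rps27a, Rpl22, Rpl7, Rplp2 and Rpl21 none lay in the window.

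Rpl18, a large subunit protein, was the member with LEF1, β-catenin and TCF7L1 peaks in the most libraries. It had a peak in 36 of 60 libraries, more than any other member, with 10 for LEF1, 9 each for β-catenin and TCF7L1 and 4 each for SOX2 and TCF7L2. The median summits lay 34 bp upstream of the start for LEF1, 29 bp for TCF7L1 and 46 bp for β-catenin. The LEF1 fold was 11.6, 21.4 and 24.9 in CEpiLCs, 8.30, 9.16 and 13.2 in SOX2-ON, 7.17, 7.13 and 11.2 in SOX2-OFF, and in naive ESCs 6.58 in replicate 2 with no peak in the other shortened lists (6.04 in the full list of replicate 3). All CEpiLC values lay above the naive value, and the change was -3.30 ± 0.72 (SE, adjusted p = 0.00563 by limma). It was called in no fit with 1 replicate left out. The β-catenin fold of Rpl18 was 4.76, 8.19 and 8.07 in CEpiLCs and 6.16 in naive replicate 1, with a change of -2.02 ± 0.98 (adjusted p = 0.156 by limma). The TCF7L1 fold was 17.4 and 15.1 in naive replicates 1 and 3, 13.1 and 6.07 in CEpiLC replicates 2 and 3, 14.5 and 16.9 in SOX2-ON replicates 2 and 3, and 6.65, 20.5 and 8.67 in SOX2-OFF. The TCF words CTTTGAA and CTTTGAT were not found within 100 bp of these summits, and other forms of the TCF site were not searched. The SOX word CTTTGT found there shares the letters CTTTG with them, and which factor it serves was not tested. This SOX word lay 28 to 45 bp from the summits, in capitals in the window shown here as the sequence beside the summits of all 3 factors.
Rpl18, chr7:45715441-45715470, plus strand: ttatcccgccatCTTTGTtgaggtcaaaac

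The shares of members and of all genes were close for β-catenin and TCF7L1, while for LEF1 the members lay above in most of the shortened lists. The share of members with a LEF1 peak was 6.35% ± 6.29 against 3.91% ± 3.71 of all genes (SD, n = 12), and members lay above in 11 of 12 libraries, by the most in CEpiLC replicates 2 and 3, with 18.8% and 20.0% of members against 11.2% and 12.2% of genes. CEpiLC replicate 1, with 4443 peaks, had 3.75%. The excess was as low as 0.186 and 0.464 percentage points in SOX2-ON replicates 2 and 3. Each of these libraries had a peak at 2 members, Rpl18 among them. Rpl18 had a LEF1 peak in 10 of the 12 libraries. Members lay above in 8 of 12 LEF1 libraries with equal-length lists and in 9 of 12 with the full lists. For β-catenin the shares were 6.98% ± 4.63 and 6.53% ± 4.98, and for TCF7L1 3.44% ± 2.39 and 3.77% ± 1.64. A peak in at least 6 of 12 libraries was present at 1 member for LEF1 (Rpl18; 0.487% of all genes), at 2 for β-catenin (Rpl18 and Rps10; 2.42%), at 1 for TCF7L1 (Rpl18; 1.38%) and at 18 for TCF7L2 (7.69%).

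Few members could be tested for these targets. For LEF1, limma called 1 of 5 members between naive ESC and CEpiLC (31.9% of the 834 genes tested), 0 of 5 between SOX2-ON and SOX2-OFF (0.959%), with 0 at an unadjusted p under 0.05, and 1 of 5 for the difference of the changes (18.9%). For β-catenin it called 0 of 7 between naive ESC and CEpiLC (32.3% of the 2084 genes tested), with 1 at an unadjusted p under 0.05, 0 of 7 between SOX2-ON and SOX2-OFF (1.20%), with 0, and 0 of 7 for the difference (20.0%), with 0. With the replicate number as a block, Rpl37 was called for β-catenin between naive ESC and CEpiLC. For TCF7L1 it called 1 of 3 between naive ESC and CEpiLC (28.2% of the 975 genes tested), 0 of 3 between SOX2-ON and SOX2-OFF (1.23%), with 1 at an unadjusted p under 0.05, and 0 of 3 for the difference (14.3%), with 1. Counts of members with a peak in 3 of 3 against 0 of 3 libraries were 0 for LEF1 in both comparisons (1.05% and 0.0683% of all genes), 1 and 0 for β-catenin (3.01% and 0.196%) and 1 and 0 for TCF7L1 (1.06% and 0.0729%).

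The members behind these counts were Rpl3 and Rpl37. Rpl3, a protein at the core of the large subunit, had a TCF7L1 fold of 15.3, 8.18 and 20.7 in naive ESCs and no peak in the shortened CEpiLC lists, a change of 3.89. The full list of CEpiLC replicate 2 held a weaker peak of 5.15. In SOX2-ON it had 5.48 and 12.9 in replicates 2 and 3, and in SOX2-OFF none. The summit lay 852 bp downstream of the gene start, the start of Syngr1 lies within 1 kb, and the call was lost with a window of 500 bp, with the nearest transcript start, and without replicate 2 or replicate 3. Rpl37 had a β-catenin fold of 5.01, 5.10 and 4.42 in CEpiLCs and no peak in the shortened naive lists (4.44 in the full list of replicate 1), with a change of -2.55. Rpl3 had TCF7L1 peaks and Rpl37 β-catenin peaks in 5 of 12 libraries each. The filter of 3 libraries was reached only with the naive ESC peaks at Rpl3 and only with the CEpiLC peaks at Rpl37. Both changes are therefore descriptions with no test.

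At Rps10 most β-catenin summits lay at another position than the SOX2 summits. The SOX2 summits of CEpiLCs lay 179, 116 and 193 bp upstream of the start. Of the 7 β-catenin summits, 6 lay between 842 and 927 bp downstream, and the other, in CEpiLC replicate 1, lay 188 bp upstream. Only CEpiLCs had a SOX2 peak here in the shortened lists. Their other β-catenin summit, in replicate 2, lay 927 bp downstream, so the condition with both targets was split. Only the strongest summit of each library was kept, so a weaker peak at the other position would not be seen. The windows below show a SOX word at the first position and a TCF word at the second, in capitals. All 30 bases of the second are masked as repeat in the assembly.
Rps10, SOX2 position, chr17:27636870-27636899, minus strand: ccggcaaaggtcACAAAGgagagcagagtc
Rps10, β-catenin position, chr17:27635752-27635781, minus strand: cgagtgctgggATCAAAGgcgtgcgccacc

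**Figure D4:**
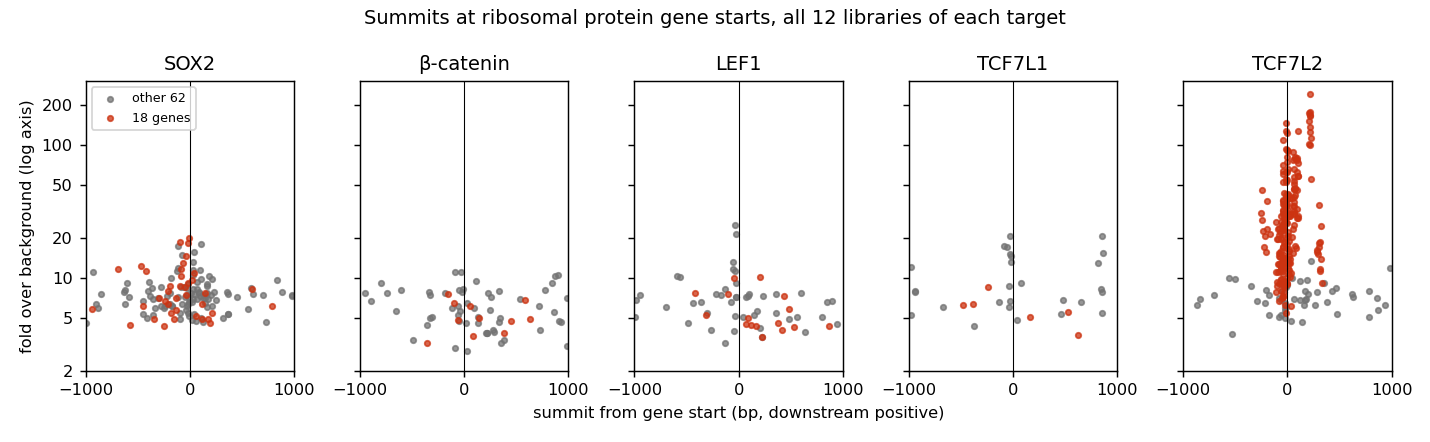
Position of each member summit relative to the gene start in bp, downstream positive, against its fold over background (log axis), for all 12 libraries of each target. Points of the 18 genes with a TCF7L2 peak in at least 11 libraries are red and those of the other 62 members grey. TCF7L2 summits of the 18 genes form a narrow column near the start that reaches a fold of 241, while the summits of the other 4 targets stay below a fold of 25 and spread over the window.

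TCF7L2 summits at members were close to the start, at a median distance of 60 bp over 269 summits against 175 bp for all genes, and 78.8% lay within 200 bp against 53.8%. A gene was counted once for each library with a peak, so the summits are not independent sites. Most of the 269 belong to the 18 genes chosen by their TCF7L2 peaks, and the values mainly describe those genes. For SOX2 the median distance was 168 bp over 144 summits against 255 bp, for β-catenin 310 bp over 67 against 294 bp, for LEF1 226 bp over 61 against 365 bp, and for TCF7L1 460 bp over 33 against 348 bp. At 15 of the 18 TCF7L2 genes the median summit lay within 100 bp of the start. Rps19 at 217 bp downstream, Rpl4 at -213.5 bp (upstream) and Rpl35 at 307 bp downstream were the others.

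There were 8 members with no peak in any of the 60 shortened lists, Rpl10l, Rpl13, Rpl17, Rpl32, Rpl36a, Rpl39l, Rpl3l and Rps21. Rpl10l, Rpl39l and Rpl3l are paralogs with expression restricted to testis or striated muscle. In the full lists every member had a peak in at least 6 libraries, with a median of 22, the lowest being Rpl39l and the highest Rpl18 with 46. Counted at the gene start, several named members had few peaks. Rplp0 and Rplp1, which form the stalk with Rplp2, had a peak in 3 and 4 libraries. Rpsa and Rpl11 had 1, and Rpl5 had 3. Rps2 also had 3, although it had TCF7L2 in 12 of 12 libraries at its other transcript starts. Rpl5 and Rpl11 bind the 5S RNA and, when free, the p53 regulator MDM2. The annotated Rpl11 gene spans 25164 bp, and using its nearest transcript start left its count for TCF7L2 at 0. Apart from Rpl18 and Rps10, the members with a peak in the most of 60 libraries were TCF7L2 genes, among them Rps7 with 23, Rpl23a with 20 and Rps15 with 17. Rps10 had 17. Rps10 had a LEF1 peak in 3 libraries. Rpl3 with 5 and Rps25 with 3 followed Rpl18 for TCF7L1. For β-catenin Rps10 with 7 and Rpl37 with 5 followed it.

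**Figure D5:**
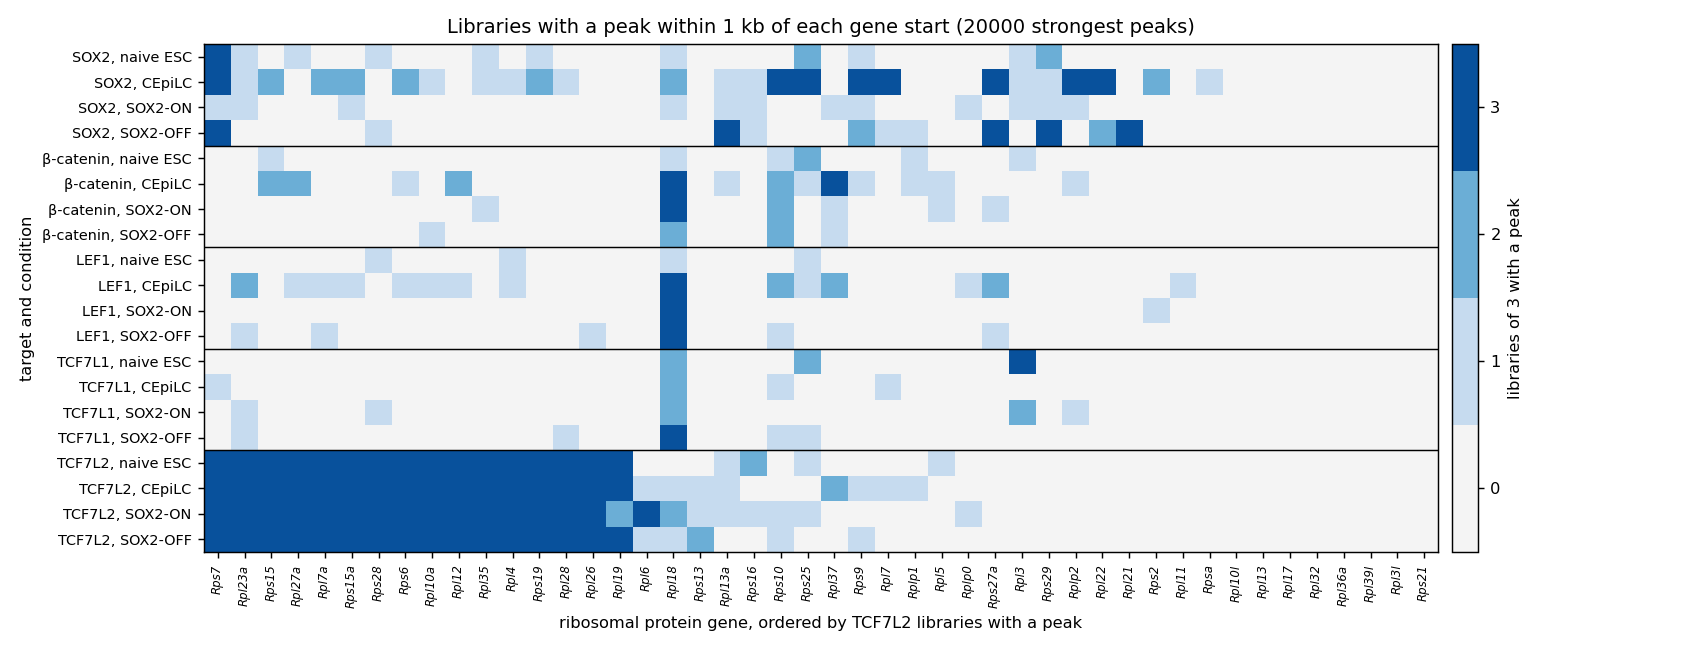
Number of libraries of 3 with a peak within 1 kb of the gene start, for the 46 ribosomal protein genes named in the text (columns, ordered by TCF7L2 libraries and then by all libraries) in each target and condition (rows). The dark block at lower left is 16 of the 18 genes, with TCF7L2 in 3 of 3 libraries of every condition except at Rpl19 with 2 of 3 in SOX2-ON. Rpl18 is the column that is filled in the β-catenin, LEF1 and TCF7L1 rows.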

How the data were processed

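ChIP-seq reads (single end, 76 bp) were processed by the authors with the nf-core/chipseq pipeline, alignment with BWA to mm10 and a MACS2 call per library at a q-value threshold of 0.05. The deposited narrowPeak lists hold a fold ratio over background, −log10 p and −log10 q values and the summit offset of each peak. Read depth is not given in the sources used here, so counting errors of single values are unknown. Peaks were ranked by fold, summits were compared with GENCODE gene starts, and sequence was read with pysam 0.24.0 (genes on chromosome 18 did not enter the word search). The limma 3.58.1 fits in R 4.3.3 used a pseudocount of 1 over 4 conditions, and were tested on simulated data. Alternatives were ranking by p, all peaks, equal-length lists, −log10 q of at least 5, a window of 500 bp, transcript starts, members with no neighbouring start, a pseudocount of 0.1, no filter, ranks, a replicate block and each replicate left out. Genes were named by library counts, by limma p, by 3 of 3 against 0 of 3 libraries, or from a short list (stalk genes, 5S-binding genes, tissue-restricted paralogs, Rpsa, Rps2, Rpl3, Rpl4, Rps6 and Rps27a). The members and lists were chosen with earlier results of these data known. Same-numbered replicates correlated above 0.1 in each of 3 pairs only for TCF7L1 in SOX2-ON and SOX2-OFF (0.110 to 0.175 over genes), where the block changed no call. Some genes that this rule names are not reported here.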

Additional observations from a re-analysis of the deposited data

Results flagged for a closer look

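The change between the wild-type conditions differed from the change between SOX2-ON and SOX2-OFF at 4 members, by the limma interaction term (naive ESC minus CEpiLC, minus SOX2-ON minus SOX2-OFF, on the log2(fold + 1) scale). For SOX2 the difference was -3.42 at Rps10, with a peak in 3 of 3 CEpiLC libraries and 0 in every other shortened list, and 3.12 at Rpl21, with a peak in 3 of 3 SOX2-OFF libraries and 0 elsewhere. Both entered the fit through that condition alone, so they had to differ and their differences are descriptions with no test. It was -3.87 at Rplp2, with peaks in CEpiLCs and in 1 SOX2-ON library. Rplp2 reached the filter of 3 libraries only with its CEpiLC peaks, so its value too is a description with no test. For LEF1 the difference was -3.55 at Rpl18 (adjusted p = 0.0344 by limma). None of the 4 was called when all deposited peaks were used or when any 1 replicate was left out. With any replicate left out, Rps10 and Rpl21 fell below the filter of 3 libraries and were not tested. Rplp2 fell below it without replicate 1.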

How the results depend on the processing

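The mean excess of members over all genes, in percentage points, kept within 1 SD of its value (17.1 for TCF7L2, 4.26 for SOX2, 2.45 for LEF1, 0.446 for β-catenin and -0.332 for TCF7L1) except with all deposited peaks, where it was 20.7 for SOX2, 2.97 for β-catenin and 2.41 for TCF7L1. The count of 18 genes with TCF7L2 in at least 11 libraries stayed between 13, without genes that have a neighbouring start, and 20. Alternatives for this count were chosen after the data were seen. For SOX2 between naive ESC and CEpiLC, the 5 calls became 3 when ranked by p-value, 0 with all peaks and 2 on the rank scale, and 0 to 2 with a replicate left out. The 2 calls between SOX2-ON and SOX2-OFF became 0 with all peaks, and 1 with a −log10 q of at least 5, without neighbouring starts or on the rank scale, and ranged from 0 to 2 with a replicate left out. The 3 SOX2 interaction calls became 0 with all peaks and 0 with any replicate left out. The LEF1 call of Rpl18 and its interaction call became 0 with all peaks and 0 with any replicate left out, and the latter also 0 with a pseudocount of 0.1, with no filter and on the rank scale. The TCF7L1 call of Rpl3 became 0 with all peaks, equal-length lists, a window of 500 bp, transcript starts or no neighbouring start, and ranged from 0 to 1 with a replicate left out. The 0 β-catenin calls became 1 on the rank scale, and 1 (Rpl37) with the replicate block, which left the other 14 of 15 counts as they were. A TCF7L2 interaction count of 0 became 1 (Rpl6) with a window of 500 bp. A fit with a replicate left out kept the filter of 3 libraries, so Rps10 and Rpl21, with 3 SOX2 peaks each, were not tested for SOX2 in it. The causes of the other shifts were not tested, although fewer samples enter such a fit. Outside TCF7L1 in SOX2-ON and SOX2-OFF, same-numbered replicates share only a number, with correlations from -0.0355 to 0.0787. Of 149 values of called members under these alternatives, 0 changed direction and 44 fell short of the threshold.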
